A study of Mus musculus with 2 samples.

Results

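The data described here are the levels of 10 genes that mark astrocytes in the postpartum mouse brain, namely Gfap, Aqp4, Slc1a2, Slc1a3, Aldh1l1, S100b, Gja1, Gjb6, Glul and Aldoc. They were found by their gene names among the 27962 gene names on the array, and each of their 21 probes was kept. Whole brain RNA from 8-week-old C57BL/6J females, taken on postpartum day 0, was hybridized to 2 two-colour arrays of the same slide. The sample lacking TDAG51 (TDAG51-/-, the putative transcriptional regulator also called Phlda1) was labelled with Cy3 on both arrays. The first array carried the wild type (TDAG51+/+) in Cy5. The second array carried TDAG51-/-Tg2 in Cy5, which lacks the endogenous gene and expresses a TDAG51 transgene from the brain-specific BAI1-AP4 promoter, known to be active mainly in cerebral cortex and hippocampus. TDAG51-/-Tg2 is 1 transgenic line, and the number of dams in each sample was not given in the sources used here. Each comparison had 1 array and the dyes were not swapped, so genotype and dye cannot be told apart and no test across dams was possible. A log2 ratio below is always the loess-normalised level in TDAG51-/- over that in the named control and an intensity is the mean signal of the spot in arbitrary scanner units. Precision is limited by the number of arrays. The only errors available were technical. The scanner's error model gave from 0.20 to 0.24 for the log2 ratio of a member probe, and 245 probes with at least 5 spots had a median SD between spots of 0.06 on each array.

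Astrocytes are the glial cells that contact both synapses and blood vessels. They take up glutamate through the transporters encoded by Slc1a2 and Slc1a3 and convert it to glutamine with glutamine synthetase, the product of Glul. Their endfeet around vessels hold the water channel of Aqp4, and gap junctions built from the connexins of Gja1 and Gjb6 join neighbouring astrocytes. Gfap encodes an intermediate filament that is raised in reactive astrocytes. S100b encodes a calcium-binding protein, Aldh1l1 a folate enzyme and Aldoc a glycolytic aldolase that is also made by Purkinje cells. Astrocytes differ between brain regions, with Slc1a2 known to be high in the forebrain and Slc1a3 in the Bergmann glia of the cerebellum.

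The 9 genes that could be measured did not shift in 1 direction as a group. A ratio free of saturation was obtained for 9 of the 10 genes on both arrays, and the median log2 ratio of these 9 was -0.01 over TDAG51+/+ and 0.04 over the TDAG51-/-Tg2 sample. Over the 22310 gene names with such a ratio, both medians were 0.01. The 2 medians of the 9 genes were the values of single probes, AK045716 of Slc1a3 and the probe of Aldh1l1. AK045716 read 592 in TDAG51-/- on the first array, where the RefSeq probe of Slc1a3 read 58455. The median of the 9 genes was below 0 on both arrays when the ratios were centred on the array median (-0.19 and -0.20) or left without normalization (-0.34 and -0.38), where the medians of all gene names were -0.06 and -0.08 or -0.22 and -0.26. Aqp4, Gjb6, Aldoc and Aldh1l1, 4 of the 9 genes, were above both controls, beside 37.7% of all gene names. At the probe used for each gene, Slc1a3, Gfap and Glul were below both, and 35.7% of all gene names were. Slc1a3 was at -0.01 over TDAG51+/+, smaller than the error of a single ratio. Other unsaturated probes of Slc1a3 and Gfap were above 0 on both arrays. No member was at least 2-fold above TDAG51+/+, beside 5.11% of all gene names, and 0 were at least 2-fold below it, beside 4.47%. Aqp4 alone was at least 2-fold above TDAG51-/-Tg2, beside 4.85% of all gene names, and 0 members were at least 2-fold below it, beside 3.83%. No member passed 2-fold against both controls, whereas 2.8% of all gene names were higher and 1.56% lower by that rule. Both comparisons used TDAG51-/- RNA, so the same direction in both is not independent evidence.

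**Figure D1:**
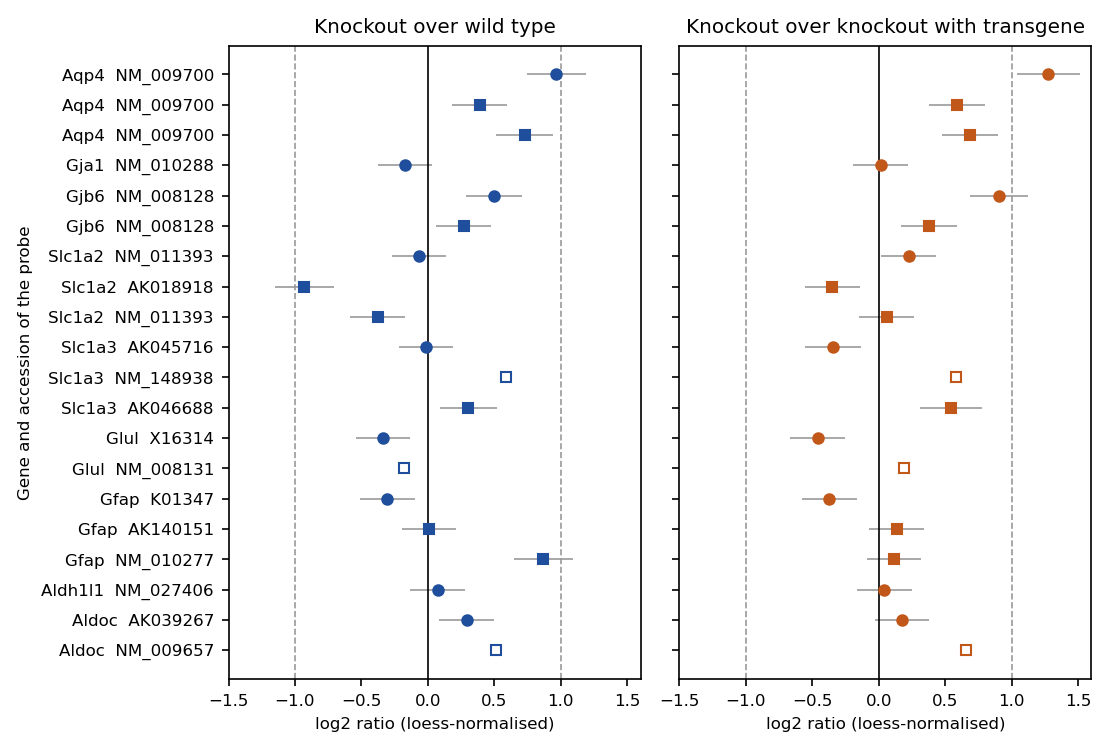
Log2 ratio (x axis, loess-normalised) of each probe of 9 astrocyte genes (y axis) for TDAG51-/- over TDAG51+/+ (left, blue) and over TDAG51-/-Tg2 (right, orange). Circles are the representative probe of each gene and squares its other probes, filled where unsaturated, with bars for the error from the scanner's error model, while open squares are upper bounds because the control channel was saturated. Dashed lines mark 2-fold. The 3 Aqp4 probes lie above 0 in both panels, and the probes of Gfap, Slc1a2 and Slc1a3 scatter to both sides of 0 in at least 1 panel.

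Several results below differ between probes of the same gene, and the part of probe position in this was not tested. Probes of Gfap and Slc1a2 are therefore shown, read 5′ to 3′ from the scanner output, with its mm7 positions. Each is 60 bases long, and the first 30 bases are printed.
Gfap K01347, chr11:102996643-102996703, minus strand: tgctctatgcatatacgtaatgtcacctat
Gfap AK140151, chr11:102999540-102999599, minus strand: ggttatattaacagagctagcctatgctaa
Slc1a2 NM_011393, chr2:102628336-102628395, plus strand: aaatgaccaagacgcagtccatttacgacg
Slc1a2 NM_011393, chr2:102628431-102628490, plus strand: gatgagtgcaaggtacctttcccattcctg
Slc1a2 AK018918, chr2:102595131-102595190, minus strand: actctgcctttgttatagacttgaagctag
The AK018918 probe of Slc1a2 lies 33145 bases from the nearer NM_011393 probe and is listed on the opposite strand. RefSeq places Slc1a2 on the plus strand. Strands were looked up for 9 of the 10 genes, and every other probe of these 9 genes was on the strand of its gene.

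Among the genes of endfeet and gap junctions, Aqp4 was higher in TDAG51-/- than in both controls at each of its 3 probes. At its brightest probe (NM_009700, chr18:15742177-15742236, minus strand), the intensity was 13415 in TDAG51-/- and 9642 in TDAG51+/+ on the first array. On the second array it was 11590 in TDAG51-/- and 6523 in TDAG51-/-Tg2. The log2 ratios of that probe were 0.97 (1.95-fold) and 1.28 (2.42-fold). The TDAG51-/- sample was thus the higher one on each array, with a larger gap to TDAG51-/-Tg2. The 2 other Aqp4 probes gave smaller log2 ratios of 0.39 and 0.73 against TDAG51+/+ and of 0.59 and 0.69 against TDAG51-/-Tg2, and the 3 probes thus differed by up to 0.57 and 0.69 within an array. All 3 Aqp4 probes stayed above 0 on both arrays under each of 7 processing settings, although the lowest value was 0.02, for 1 probe against TDAG51+/+ without normalization.

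Gjb6, which encodes connexin 30, had an intensity of 14169 in TDAG51-/- and 14440 in TDAG51+/+ at its brighter probe. The same probe read 13287 in TDAG51-/- and 10067 in TDAG51-/-Tg2. The Cy5 channel was the brighter one for bright probes in general, and after loess the log2 ratios were 0.50 (1.41-fold) and 0.91 (1.87-fold). The dimmer Gjb6 probe also lay above 0, at 0.27 and 0.38. Against TDAG51+/+ the brighter probe was at 0.12 with median centring and at -0.03 without normalization, where the median of all gene names was -0.22. The dimmer probe was above 0 in each of 7 settings on both arrays.

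Gja1, which encodes connexin 43, did not show the same pattern. Its probe was printed 10 times on each array, of which 9 spots were kept for the wild type comparison and 6 for the other. TDAG51-/- spots ran from 10655 to 15290 with a median of 12818 and TDAG51+/+ spots from 17840 to 24938 with a median of 21071. Beside TDAG51-/-Tg2, the TDAG51-/- spots ran from 12348 to 12753 and TDAG51-/-Tg2 spots from 17374 to 18904. The channels did not overlap before normalization, with Cy5 above Cy3 on both arrays, but after loess the log2 ratio was -0.17 ± 0.03 (SD over 9 spots) with TDAG51+/+ and 0.01 ± 0.05 (SD over 6 spots) with TDAG51-/-Tg2 as the control. The spots of 1 probe share their RNA and give technical spread alone.

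**Figure D2:**
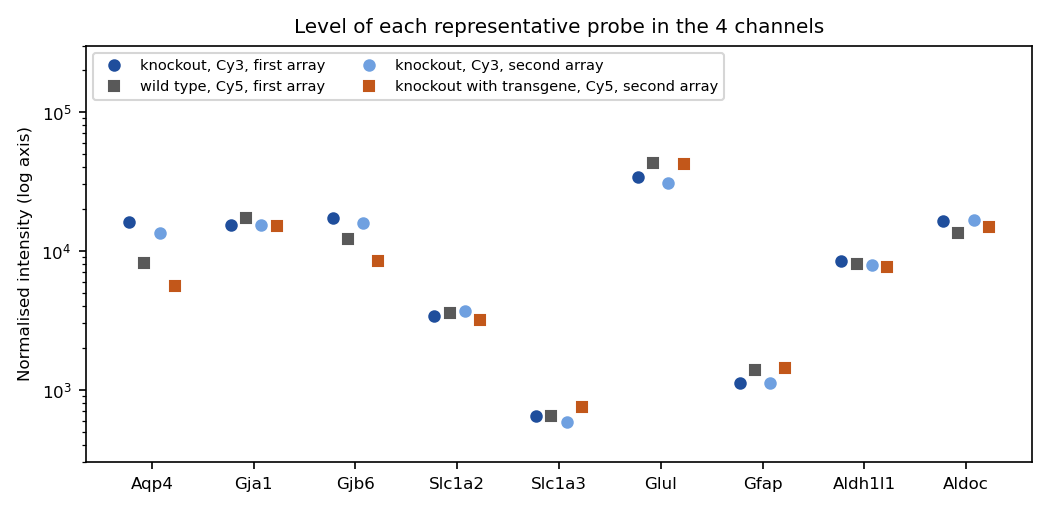
Normalised intensity (y axis, log scale, arbitrary units) of the representative probe of 9 astrocyte genes (x axis) in TDAG51-/- on the first array (dark blue circles), TDAG51+/+ (grey squares), TDAG51-/- on the second array (light blue circles) and TDAG51-/-Tg2 (orange squares). Each point is 1 channel of 1 array with no replicate, both blue circles lie above both squares for Aqp4, Gjb6 and Aldoc, and both squares lie above both circles for Gfap, Glul and Slc1a3.

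The glutamate genes did not move together. For Slc1a2, the transporter GLT-1, the brightest probe (NM_011393, the first of the pair printed above) read 3057 in TDAG51-/- and 3875 in TDAG51+/+. It read 3342 in TDAG51-/- and 3506 in TDAG51-/-Tg2. Its log2 ratios were -0.07, within the error of a single ratio, and 0.23, just past it. The neighbouring NM_011393 probe gave -0.38 and 0.06. The AK018918 probe, on the opposite strand, had an intensity of 1470 in TDAG51-/- against 3321 in TDAG51+/+, and of 1519 against 2308 in TDAG51-/-Tg2. Its log2 ratios of -0.93 and -0.35 were the lowest of the 3 on both arrays. All 3 probes were below 0 against TDAG51+/+ in each of 7 settings, and what the AK018918 probe measures was not tested.

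For Slc1a3, the transporter GLAST, the probe of the RefSeq transcript (NM_148938) was saturated in Cy5 on both arrays at 65284, while TDAG51-/- read 58455 and 57901. The control level is therefore a lower bound, and no fold is given for it. Of the 2 unsaturated probes, AK045716 read 592 in TDAG51-/- and 661 in TDAG51+/+, and 537 against 810 in TDAG51-/-Tg2, with log2 ratios of -0.01 and -0.35. The dimmer AK046688 probe pointed the other way. It read 205 in TDAG51-/- and 167 in TDAG51+/+, and 195 against 146 in TDAG51-/-Tg2, with log2 ratios of 0.30 and 0.54. The direction for Slc1a3 thus depends on the probe.

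Glul also had a RefSeq probe (NM_008131) with a saturated Cy5 channel. Its second probe, X16314, was not saturated, with an intensity of 26684 in TDAG51-/- and 53742 in TDAG51+/+. In the other comparison it read 24478 in TDAG51-/- and 53870 in TDAG51-/-Tg2. TDAG51-/- was the lower sample on both arrays, with log2 ratios of -0.34 (1.26-fold lower) and -0.46 (1.38-fold lower). These values stayed below 0 in each of 7 settings. They reached -1.01 and -1.14 without normalization, where the medians of all gene names were -0.22 and -0.26. With median centring Glul was at -0.86 and -0.95. The 2231 brightest gene names, which include Glul, then had medians of -0.48 and -0.46.

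The 3 probes of Gfap gave different ratios against TDAG51+/+, and 2 of them similar ones against TDAG51-/-Tg2. The K01347 probe was printed 10 times, with 8 spots kept on the first array. Its TDAG51-/- spots had a median intensity of 1014 and the TDAG51+/+ spots 1462, and the spots of the channels did not overlap (963 to 1135 against 1357 to 1563). On the second array the medians were 1010 in TDAG51-/- and 1511 in TDAG51-/-Tg2, again without overlap (898 to 1146 against 1412 to 1749). After normalization the log2 ratio was -0.31 ± 0.04 (SD over 8 spots) and -0.37 ± 0.02 (SD over 10 spots), below 0 at every spot and in each of 7 settings. The NM_010277 probe read 1261 in TDAG51-/- and 776 in TDAG51+/+, a log2 ratio of 0.87. On the second array it read 1208 in TDAG51-/- and 1316 in TDAG51-/-Tg2, a log2 ratio of 0.11. TDAG51-/- was thus about the same on both arrays at this probe, and TDAG51+/+ was lower than TDAG51-/-Tg2. The AK140151 probe gave 0.01 and 0.13, and its TDAG51-/- intensity itself was 1296 on the first array but 787 beside TDAG51-/-Tg2. AK140151 lies inside the interval of 2450 bases over which the NM_010277 probe is listed. Which transcript AK140151 measures was not tested. The 3 log2 ratios of Gfap spanned 1.17 over TDAG51+/+ and 0.51 over TDAG51-/-Tg2. Of 7187 genes with over 1 unsaturated probe, 19.5% had a span of at least 1 in the first comparison and 18.8% in the other.

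The S100b probe was saturated in both channels of both arrays, and no ratio was obtained. Aldh1l1 had 1 probe, with an intensity of 7267 in TDAG51-/- and 9269 in TDAG51+/+, and of 6838 in TDAG51-/- and 8928 in TDAG51-/-Tg2. Its log2 ratios of 0.07 and 0.04 were smaller than the error of a single ratio. Aldoc had a Cy5-saturated RefSeq probe (NM_009657) and an unsaturated probe, AK039267, which read 13555 in TDAG51-/- and 15979 in TDAG51+/+. AK039267 also read 13770 in TDAG51-/- and 17895 in TDAG51-/-Tg2. The log2 ratios were 0.29 and 0.18 with loess and -0.09 and -0.19 with median centring, where the medians of all gene names were -0.06 and -0.08. Aldh1l1 was at -0.20 and -0.20 with median centring, so the directions of both genes rest on the normalization.

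**Figure D3:**
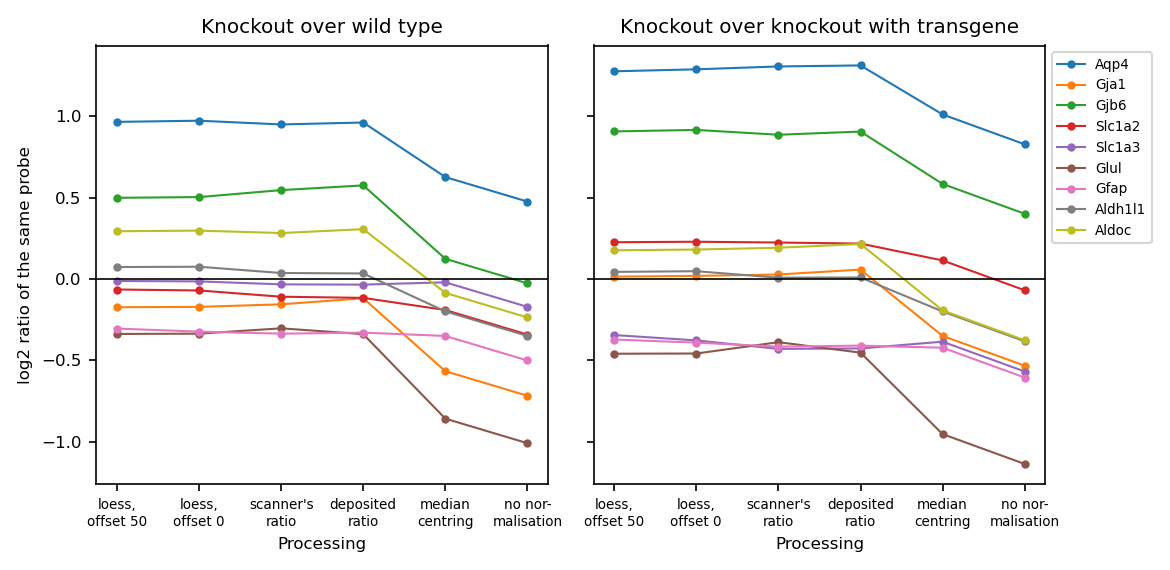
Log2 ratio (y axis) of the same representative probe of 9 astrocyte genes (lines) under 6 ways of processing (x axis), for TDAG51-/- over TDAG51+/+ (left) and over TDAG51-/-Tg2 (right). Aqp4 stays above 0 and Gfap, Glul and Slc1a3 stay below 0 in all 6. With median centring Aldoc and Aldh1l1 cross 0 in both panels and Gja1 in the right one, and without normalization so do Gjb6 in the left panel and Slc1a2 in the right one.

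Further genes known from astrocytes were sorted into 5 lists by role, and 52 of 54 had an unsaturated ratio. Their median log2 ratio was 0.11 over TDAG51+/+ and 0.18 over the TDAG51-/-Tg2 sample (-0.14 and -0.06 with median centring). Of these 52 genes, 25 were above both controls, beside 37.7% of all gene names, and 17 below both, beside 35.7%. By the 2-fold rule 2 genes were higher and 2 lower against both controls, beside 2.8% and 1.56% of all gene names. Gdf10, a secreted factor known from Bergmann glia, read 1881 in TDAG51-/- and 436 in TDAG51+/+, and 1714 against 428 in TDAG51-/-Tg2, with log2 ratios of 2.25 and 2.20. Dao, a D-amino acid oxidase known from cerebellar and hindbrain astrocytes, was at 1.09 and 1.01. The paper had already listed Dao as upregulated from these arrays. Below both controls were Grm3, a metabotropic glutamate receptor, at -1.17 and -1.01, and Lhx2, a transcription factor of the forebrain, at -1.01 and -1.18. These 4 genes kept their direction in each of 7 settings on both arrays, but in at least 1 setting Dao (0.90 and 0.78 without normalization) and Grm3 (-0.94 at its nearest to 0, against TDAG51-/-Tg2) were short of 2-fold.

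The list of endfoot, ion and water genes, the one nearest to Aqp4 in role, had medians of 0.17 and 0.24, with 7 of 10 genes above both controls (37.7% of all gene names) and 1 below both (35.7%). With median centring those medians were -0.04 and -0.01, when the medians of all gene names were -0.06 and -0.08. None of the 10 passed 2-fold against both controls, beside 2.8% of all gene names above and 1.56% below. Kcnj10, the potassium channel Kir4.1 that lies beside Aqp4 in endfeet, was at 0.63 and 0.17, and the second value was below 0 with median centring or no normalization. The glutamate and GABA list was at -0.08 and 0.08, the metabolism list at 0.07 and 0.43, the secreted and lipid list at 0.14 and -0.07, and the list of transcription factors and receptors at 0.08 and 0.15. With median centring, beside the same medians of all gene names, these 4 pairs were -0.17 and -0.05, -0.12 and 0.22, 0.17 and -0.21, and -0.26 and -0.11. Apoe, a lipid carrier, was at 0.14 and -0.19, and Sox9, a transcription factor of astrocytes, at 0.40 (above 0 in 5 of 7 settings) and -0.24. The only Apoe probe read 352 in TDAG51-/- and 343 in TDAG51+/+, near the median Cy3 intensity of that array, 338.2. On the second array it read 321 in TDAG51-/- and 427 in TDAG51-/-Tg2. Of 11 measured genes of reactive astrocytes, 6 were above both controls (37.7% of all gene names) and 2 below both (35.7%), with medians of 0.31 and 0.04 (0.39 and -0.01 with median centring). The 0.31 is the value of Cxcl10, a dim probe that read 170 in TDAG51-/- and 141 in TDAG51+/+. With offset 0 in the background correction the medians were 0.44 and 0.03. Vim, an intermediate filament that assembles with Gfap, was at 0.76 and 0.55, above 0 in each of 7 settings.

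**Figure D4:**
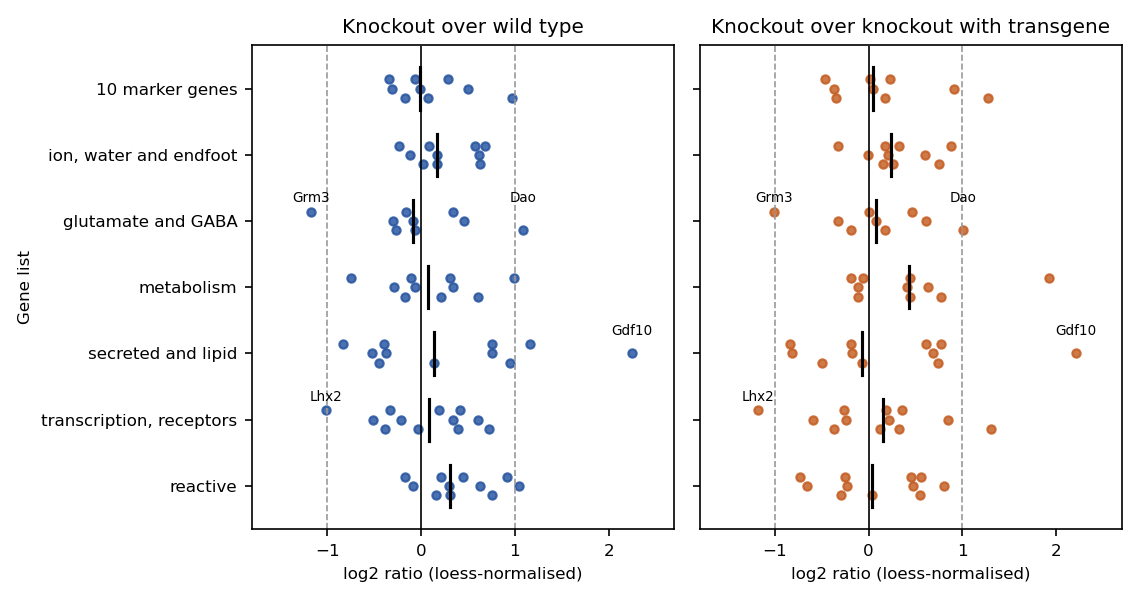
Log2 ratio (x axis, loess-normalised) of each measured gene (points) in the 10 marker genes and 6 further lists of astrocyte genes (y axis), for TDAG51-/- over TDAG51+/+ (left) and over TDAG51-/-Tg2 (right). Black bars are list medians and dashed lines 2-fold; the medians lie between -0.08 and 0.43, and Gdf10, Dao, Grm3 and Lhx2 are the genes past 2-fold in the same direction in both panels.

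Markers of brain regions also differed between the TDAG51-/- sample and both control samples, with list medians farther from 0 than that of the astrocyte genes. Beside the counts below, 37.7% of all gene names were above both controls and 35.7% below both. All 9 measured cerebellar markers were above both controls, with medians of 2.13 and 2.26, and their summed normalised intensity was 261038 in TDAG51-/- against 60449 in TDAG51+/+ and 267439 against 56630 in TDAG51-/-Tg2. All 8 hindbrain markers were above both, with medians of 2.64 and 2.67 and sums of 7972 against 1267 and of 8318 against 1219. Of 8 striatal markers 7 were below both, with medians of -1.36 and -1.56. Ppp1r1b was among these 7, with -0.003 over TDAG51+/+ and -0.20 over TDAG51-/-Tg2. The striatal sums were 59014 against 140117 and 55779 against 144256. The 7 measured markers of cortex and hippocampus were all below both, with medians of -0.99 and -1.29 and sums of 18098 against 34262 and of 19510 against 42346. These 4 lists kept the sign of their medians under each of 6 scalings. Drd1, Adora2a, Penk and Pde10a of the striatal list, Slc17a7, Gabra6 and Slc6a4 were already listed as changed by the paper from these arrays. The direction of these genes was therefore known before the lists were made. The summed level of the 9 astrocyte genes was 112251 in TDAG51-/- against 107329 in TDAG51+/+ and 104969 against 98935 in TDAG51-/-Tg2. These sums leave out S100b and the saturated probes of Slc1a3, Glul and Aldoc. Glul gave 33720 of the sum in TDAG51-/- on the first array. The sums are therefore no measure of astrocyte content. The part of regional composition in the values of Aqp4, Gjb6, Gdf10, Dao, Grm3 and Lhx2 was not tested. Fewer cells of a type and less RNA per cell cannot be told apart in whole brain.

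**Figure D5:**
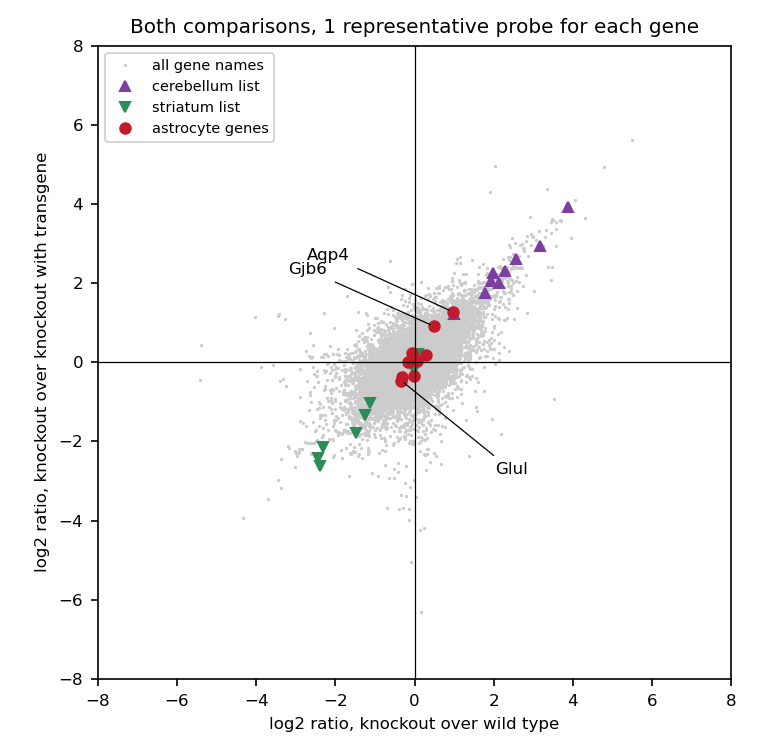
Log2 ratio of TDAG51-/- over TDAG51+/+ (x axis) and over TDAG51-/-Tg2 (y axis) for all 22310 gene names (grey), the 9 astrocyte genes (red circles), the measured cerebellar markers (purple triangles) and striatal markers (green triangles), with 1 representative probe for each gene. The astrocyte genes lie near the origin except Aqp4 and Gjb6, and both axes share the TDAG51-/- genotype.

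Among other cell types, all 8 microglial markers were below both controls (35.7% of all gene names), with medians of -0.67 and -0.57. Some were near 0 on 1 array, with Itgam at -0.008 and Csf1r at -0.11 over TDAG51-/-Tg2 and P2ry12 at -0.10 over TDAG51+/+. Of 7 neuronal markers 3 were above both (37.7% of all gene names) and 3 below both (35.7%), with medians of 0.10 and -0.03. Of 7 markers of ependyma and choroid plexus 5 were above both (37.7%), with medians of 0.51 and 0.59. Endothelial markers had medians of 0.50 and 0.09, those of oligodendrocytes -0.23 and 0.30, and those of oligodendrocyte precursors -0.17 and -0.23. With median centring the medians of all gene names were -0.06 and -0.08. There the medians were -0.72 and -0.65 for microglia, -0.35 and -0.44 for neurons, and 0.51 and 0.55 for ependyma and choroid plexus. They were 0.38 and -0.002 for endothelium, -0.58 and 0.23 for oligodendrocytes, and -0.25 and -0.32 for their precursors. As a check of the labels, the probe of Phlda1 read 350 in TDAG51-/- and 7283 in TDAG51+/+, a log2 ratio of -4.11. In the second comparison TDAG51-/- read 44.1 and TDAG51-/-Tg2 50.5, not well above background in either channel. TDAG51-/- thus read differently at this probe on the 2 arrays, and whether its RNA was 1 extract on both was not given in the sources used here. The probe therefore checks the labels of the first array only, and whether the transcript of the transgene holds this probe was not given in the sources used here.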

How the data were processed

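RNA of TDAG51-/- (Cy3) was compared with TDAG51+/+ or TDAG51-/-Tg2 (Cy5) on 1 array each. The authors deposited Agilent Feature Extraction 9.5.3.1 output, with the mean and background intensity of each spot and a background-corrected, dye-normalised log10 ratio of Cy5 over Cy3. A second deposited value, log2 of Cy3 over Cy5, has a normalization not given in the sources used here and differed from the scanner's ratio by a median of 0.0059 and 0.0058. Probe positions are on mm7.

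The 43379 spots of each array were corrected with normexp (offset 50) and normalised by loess within each array in limma 3.58.1 (R 4.3.3, data.table version 1.17.8). Outlier spots (375 and 300) and control spots were left out, and spots of each of 41174 probes were averaged. Median intensities were 338.2 and 336.1 in Cy3 and 363.8 and 385.0 in Cy5, over backgrounds of 39 to 44. The brightest probe saturated in neither channel of either array stood for a gene. Gene strands came from RefSeq (GRCm38.p6), without its coordinates. Further steps used Python 3.11.15 with pandas 2.3.3, numpy 2.4.6 and matplotlib 3.10.9. The background correction and loess steps were tested on simulated spots without saturation, and the later steps were not part of that test. Alternatives were offset 0, median centring, no normalization, the scanner's and the deposited ratio, kept outlier spots, a background filter and other choices of probe.

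The rule for named genes took every member with every probe, then, from each other list, at most 4 genes at least 2-fold from both controls in the same direction, then Kcnj10, Vim, Sox9, Apoe and Phlda1. Those from the region and other cell type lists are given here as list values and not one by one. The members and lists were chosen with earlier results of these data known. Scalings of the other lists were added after seeing the data. The sequence of 1 probe is not reported here.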

Additional observations from a re-analysis of the deposited data

How the results depend on the processing

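With 1 array for each comparison no replicate could be left out and no p-value was obtained. No paired analysis was possible because each comparison had 1 array. The median log2 ratio of the astrocyte genes against TDAG51+/+, -0.01, was -0.19 with median centring, -0.34 without normalization, 0.29 with the brightest probe saturated or not, and 0.073 with the median over a gene's probes. Against TDAG51-/-Tg2, the median of 0.04 was -0.20, -0.38 and 0.40 under the first 3 of these. The values with the brightest probe cover 10 genes, of which S100b is saturated in both channels and Slc1a3, Glul and Aldoc are upper bounds, so they are no measured medians. The count of members above both controls, 4 of 9, was 2 with median centring, 1 without normalization, 6 of 10 with the brightest probe and 6 of 9 with the median over probes, and the 1 member at least 2-fold above TDAG51-/-Tg2 was 0 without normalization and 0 with the median of all probes. Among the 2231 brightest gene names, which hold 4 of the 9 members, the median log2 ratio was -0.48 and -0.46 with median centring and -0.05 and -0.05 with loess. Of 162 values of single genes under an alternative, 19 changed sign and 110 moved by less than the SD between spots. Part of these 110 could not move, because the background filter kept every representative probe. Aldh1l1, Gja1, Glul and Aldoc also had 1 unsaturated probe each, so the median over probes could not differ for them. Against TDAG51-/-Tg2, Gja1 was -0.35 with median centring and Slc1a2 was -0.07 without normalization. With the median of all probes, Gfap was 0.01 and 0.11 and Slc1a3 0.15 and 0.10. The 0.01 of Gfap is the value of its AK140151 probe. Saturation in Cy5 limits Slc1a3, Glul and Aldoc, and saturation in both channels S100b.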
